A study of Mus musculus with 6 samples.

Results

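Sgk1, which encodes a serine/threonine kinase named for its induction by serum and glucocorticoids, was examined with 8 companions of glucocorticoid biology in mouse hepatic stellate cells treated with obeticholic acid (OCA). The companions were the receptor gene Nr3c1, the enzyme gene Hsd11b1, and the glucocorticoid-induced genes Tsc22d3, Fkbp5, Klf9, Zbtb16, Mt1 and Mt2. All 9 symbols were found in the table of exon counts, among 24940 genes. The question was whether the higher level of Sgk1 under OCA was shared by its companions. The 9 genes were chosen with this comparison known, Sgk1 by its rise. Their differences between OCA and the vehicle are therefore given as a description, with no p-value.

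Hepatic stellate cells store vitamin A and line the sinusoids of the liver as pericytes. The primary cells came from female C57BL/6JBomTac mice, were used 2 days after isolation, and the labels name no genetic change in them. In 3 libraries (OCA A, B and C) the cells had received 10 µM OCA, a bile acid analogue and agonist of the nuclear receptor FXR, for 6 h. In the other 3 (DMSO A, B and C) they had received the vehicle DMSO for 6 h. Polyadenylated RNA was sequenced. Whether replicate libraries stem from separate mice or cultures is not stated in the labels. Every standard error and p-value therefore reflects only the spread among these 6 libraries, some or all of which may be technical.

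Glucocorticoids act through the receptor encoded by Nr3c1, which is held by chaperones in the cytoplasm, moves to the nucleus on binding hormone and binds DNA, often as a dimer on a palindromic element. Inside cells the enzyme encoded by Hsd11b1 regenerates active hormone from its inert keto form. Genes induced through the receptor in many tissues include Tsc22d3, Fkbp5, Klf9, Zbtb16, Per1 and Sgk1, and Sgk1 is also induced by serum, cell shrinkage and other stimuli. The metallothionein genes Mt1 and Mt2 answer to glucocorticoids and, more strongly, to zinc and cadmium.

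Column totals ran from 12260882 to 16336240 counts, and 3 counts corresponded to 0.181 to 0.251 CPM, the counts scaled to a common library size, in a library. Of the genes, 12687 had enough counts to be tested. A gene was called where the adjusted p of edgeR's quasi-likelihood test was under 0.05. Of those tested, 276 were called higher under OCA, which is 2.18%, and 384 lower, which is 3.03%, or 5.2% in either direction. At an unadjusted p under 0.05 in the same test, 1048 of the 12687 were higher and 1357 lower. All 12 stellate cell markers were tested. Their summed level was 3167 to 3540 CPM in the DMSO libraries and 2716 to 3441 CPM in the OCA libraries, with Lhx2 called higher and Reln and Rgs5 called lower. In bulk RNA, fewer cells of a type and less RNA per cell cannot be told apart. Marker sums of hepatocytes, macrophages, endothelial cells and lymphocytes stayed at or below 12.04 CPM and overlapped between the groups. The cholangiocyte list summed to 8.40 to 9.54 CPM under DMSO and 11.3 to 14.8 CPM under OCA. It held Sox9, which was called higher and averaged 2.54 CPM under DMSO and 7.68 CPM under OCA. Spp1 went the other way, at 5.74 and 4.16 CPM, with all OCA libraries below all DMSO libraries, and was not called. Krt19 and Epcam overlapped between the groups. The remaining 2 of its 6 genes, Krt7 and Cftr, were at 0 in every library. The higher sum is therefore not shared by the genes of the list.

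Sgk1 was called higher under OCA, and edgeR, DESeq2 and limma-voom each called 0 of its 8 companions in either direction. The 1 of 9 called higher stands against 2.18% of all tested genes and the 0 of 9 called lower against 3.03%. As the genes were chosen by this comparison, nothing is read from these counts. All 9 passed the filter on low counts, so none is missing from the description. Sgk1 was also the 1 gene of the 9 whose OCA libraries all lay above its DMSO libraries, which was true of 11.6% of all tested genes. Hsd11b1 was the 1 gene whose OCA libraries all lay below, which was true of 11.3%. The median log2 fold change of the 9 genes was 0.04, with 5 above 0 and 4 below, beside a median of 0.00076 over all tested genes, with 6371 above and 6316 below.

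**Figure D1:**
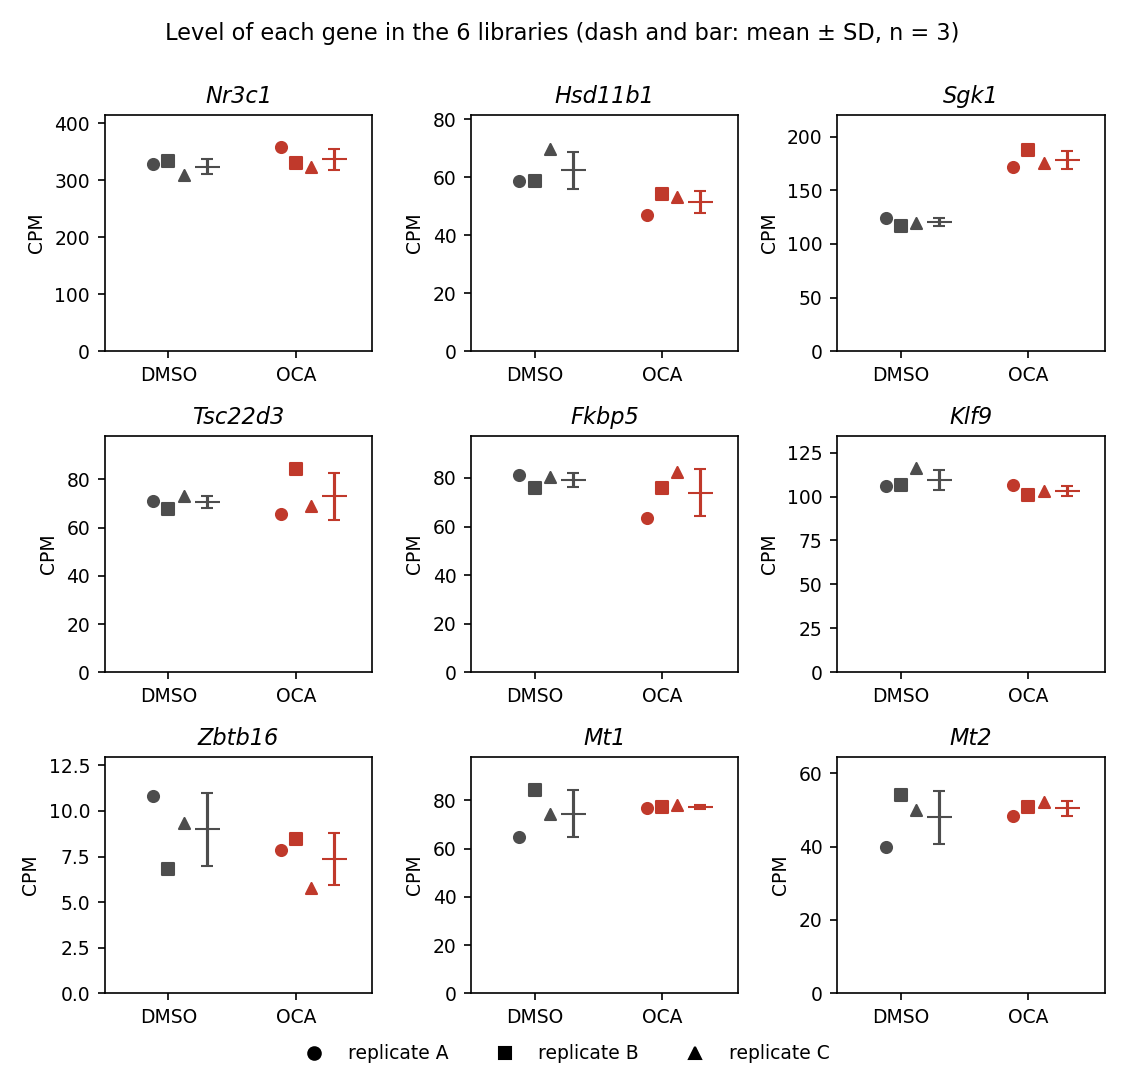
Level of each of the 9 genes in every library, in CPM on its own vertical scale starting at 0, with each group's mean ± SD (n = 3). Sgk1 separates the OCA libraries, at 172 to 188 CPM, from the DMSO libraries, at 116 to 124 CPM, and Hsd11b1 separates them in the other direction, at 47.1 to 54.4 against 58.7 to 69.7 CPM.

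The receptor gene Nr3c1 (NM_008173, mm10 chr18:39410545-39487245, minus strand) was well expressed in every library. It measured 358, 331 and 323 CPM in OCA A, B and C and 329, 334 and 309 CPM in DMSO A, B and C. The libraries of the groups overlapped, with OCA A highest and DMSO C lowest. The fold was 1.04 and the log2 fold change 0.06, with a standard error of 0.07 and a 95% interval from -0.09 to 0.20. Across all tested genes the log2 fold change went with transcript length, from a median of 0.10 in the shortest eighth of genes to -0.14 in the longest, which holds Nr3c1. With offsets that take up this trend, the log2 fold change of Nr3c1 was 0.17 and it was still not called. The part of length in its value was not tested.

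Hsd11b1 (NM_008288, chr1:193221641-193264045, minus strand), whose enzyme makes active hormone, measured 47.1, 54.4 and 53.1 CPM in the OCA libraries. The DMSO libraries measured 58.7, 58.7 and 69.7 CPM. The groups did not overlap, and the gap between the highest OCA library and the lowest DMSO library was narrow beside the distance from DMSO C to the other DMSO libraries. The mean was 62.4 ± 6.33 CPM (SD, n = 3) under DMSO and 51.5 ± 3.87 CPM under OCA. The fold was 0.826 and the log2 fold change -0.28, with a standard error of 0.09 and a 95% interval from -0.46 to -0.09. Hsd11b1 was not called, but it was called lower in 4 of 18 alternative analyses: with no filter on low counts, with length offsets, without OCA B, and without OCA B and DMSO A together. Hepatocytes express this gene strongly. Of their 9 markers, Tf was not among the symbols counted. The others summed to 2.47 to 3.71 CPM under DMSO and 2.72 to 6.76 CPM under OCA. Among them Alb, the gene of albumin, averaged 2.07 and 2.30 CPM. The part of hepatocytes in the Hsd11b1 values was not tested.

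The remaining genes of hormone metabolism and transport were little expressed or did not pass the test. Of 10 such genes, 5 had enough counts. Of these, edgeR, DESeq2 and limma-voom each called 0, beside 5.2% of all tested genes by edgeR, with 0 at an unadjusted p under 0.05. Their median log2 fold change was 0.05. H6pd, whose enzyme supplies the cofactor for the Hsd11b1 reaction, averaged 744 CPM under DMSO and 772 CPM under OCA, a log2 fold change of 0.05 with a standard error of 0.08. Abcb1b, which encodes an efflux pump that carries steroids, averaged 84.7 and 77.6 CPM, a log2 fold change of -0.13 with a standard error of 0.07.

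Sgk1 (NM_011361, chr10:21994666-21999902, plus strand, 2441 exonic bases) was higher in every OCA library than in any DMSO library. It measured 172, 188 and 175 CPM in OCA A, B and C and 124, 116 and 119.9 CPM in DMSO A, B and C. The lowest OCA library, OCA A, stood well above the highest DMSO library, DMSO A, and the spread within each group was small beside the gap. The mean was 120.2 ± 3.87 CPM (SD, n = 3) under DMSO and 178 ± 8.44 CPM under OCA. The fold was 1.48, with a 95% interval from 1.35 to 1.63, and the log2 fold change was 0.57 with a standard error of 0.06. A larger log2 fold change was found for 295 of the 12687 tested genes. Leaving out any 1 library gave log2 fold changes between 0.53 and 0.60, and Sgk1 was called in all 18 alternative analyses.

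Sgk1 has several transcription starts, and the 250 bases upstream of 2 of them are printed here. The palindromic element that the receptor dimer binds lies within the stretch before an alternative start. It also lies upstream of the start of the counted transcript, but farther than 250 bases from it. Sequences are from RefSeq on GRCm38.p6, which matched 7 of the 9 genes with 14 windows of 250 bases before a start, 6 of them for Sgk1. The palindrome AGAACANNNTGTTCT, searched on both strands, was in 3 of 32851 such windows of all genes, which is 0.0091%. The Sgk1 window that held it, chr10:21993640-21993889 on the plus strand, ends before the start at 21993890, and capitals mark the match at 21993701 to 21993715, which begins 189 bases before that start and 965 bases before the counted start.
Sgk1, alternative start: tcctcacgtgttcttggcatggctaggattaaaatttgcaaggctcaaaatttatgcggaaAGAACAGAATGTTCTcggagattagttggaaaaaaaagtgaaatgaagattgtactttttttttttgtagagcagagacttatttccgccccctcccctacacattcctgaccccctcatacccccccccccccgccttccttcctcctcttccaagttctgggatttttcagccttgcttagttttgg
The window before the counted start, chr10:21994416-21994665 on the plus strand, held no match to any motif searched and has no capitals.
Sgk1, counted start: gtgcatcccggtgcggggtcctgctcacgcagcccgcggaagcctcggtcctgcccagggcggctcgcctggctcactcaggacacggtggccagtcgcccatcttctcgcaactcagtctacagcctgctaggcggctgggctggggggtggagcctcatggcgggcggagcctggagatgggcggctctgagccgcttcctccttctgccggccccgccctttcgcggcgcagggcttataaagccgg

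No other window of the 7 genes held the palindrome. The single arm AGAACA was in 16.1% of all windows, and the alternative-start window of Sgk1 printed above held 3 copies, of which 2 are the arms of the palindrome. The arm also stood once in each of 2 more Sgk1 windows, which end before the starts at 21882184 and 21992223. Among the companions it stood once, in the Tsc22d3 window before the start at 140600522. The FXR element AGGTCANTGACCT was in 2 of the 32851 windows and in none of the 14. Its single arm AGGTCA was in 14.02% of all windows and stood once in each of 2 Sgk1 windows, which end before the starts at 21978672 and 21986104. These matches describe letters in short windows and say nothing of binding. The other full-length Sgk1 transcripts share 93.0% to 93.28% of the counted transcript's exonic bases in GENCODE M21, so counts over exons cannot tell which start was used.

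Tsc22d3 (NM_010286, chrX:140539529-140548571, minus strand) encodes GILZ, a leucine zipper protein that carries part of the anti-inflammatory action of glucocorticoids. It measured 65.8, 84.1 and 68.7 CPM in OCA A, B and C and 71.0, 67.9 and 73.0 CPM in DMSO A, B and C. OCA B alone stood above the DMSO libraries, and OCA A stood below all of them. The fold was 1.03 and the log2 fold change 0.04, with a standard error of 0.09 and a 95% interval from -0.14 to 0.22. Without OCA B the log2 fold change was -0.07, so its sign rests on that library.

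Fkbp5 (NM_010220, chr17:28398753-28486149, minus strand) encodes a co-chaperone that lowers the receptor's affinity for hormone and closes a feedback loop. It measured 63.7, 75.8 and 82.6 CPM in the OCA libraries and 81.2, 75.9 and 80.4 CPM in the DMSO libraries. OCA C was the highest of the 6 libraries and OCA A the lowest, so the OCA libraries enclosed the DMSO libraries. The fold was 0.934 and the log2 fold change -0.10, with a standard error of 0.08 and a 95% interval from -0.28 to 0.08.

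Klf9 (NM_010638, chr19:23141226-23166911, plus strand) encodes a zinc finger transcription factor that responds early to the hormone. It measured 106, 101 and 103 CPM in the OCA libraries and 106, 107 and 116 CPM in the DMSO libraries. OCA A overlapped DMSO A, and DMSO C stood highest. The fold was 0.944 and the log2 fold change -0.08, with a standard error of 0.07 and a 95% interval from -0.22 to 0.06.

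Zbtb16 (NM_001033324, chr9:48654297-48835945, minus strand) encodes the zinc finger factor PLZF, which is strongly induced by glucocorticoids in several human cell types. It was the lowest of the 9 genes, at 7.84, 8.47 and 5.77 CPM in the OCA libraries and 10.8, 6.82 and 9.34 CPM in the DMSO libraries. The groups overlapped, and the spread between libraries was wide. The fold was 0.811 and the log2 fold change -0.30, with a standard error of 0.22 and a 95% interval from -0.75 to 0.15. Its standard error was the largest of the 9 genes.

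Mt1 (NM_013602, chr8:94179089-94180327) and Mt2 (NM_008630, chr8:94172618-94173567) lie side by side on the plus strand and encode small cysteine-rich proteins that bind zinc and copper. Metals act on such genes through metal response elements, and the stretches before the starts are printed to show where the letters of that element's core occur. Capitals mark matches to this core, TGCACNC or TGCGCNC, searched on both strands, which was in 21.4% of all windows. The Hsd11b1 window, not printed, also held 1 match, 237 bases before a start at 193242360 that is not the counted start. Mt1 had 1 match, 23 bases before the start of its counted transcript, in chr8:94178839-94179088. The RefSeq span of the gene begins earlier, at 94178883, and bases outside this window were not searched.
Mt1: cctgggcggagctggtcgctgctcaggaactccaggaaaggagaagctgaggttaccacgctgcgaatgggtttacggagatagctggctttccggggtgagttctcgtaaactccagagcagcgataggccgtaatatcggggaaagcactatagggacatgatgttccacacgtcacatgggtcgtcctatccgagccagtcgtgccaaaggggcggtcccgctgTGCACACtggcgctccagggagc
Mt2 had 3 matches, 223, 128 and 50 bases before its start, in chr8:94172368-94172617. The last is on the minus strand and reads GTGTGCA on the strand printed.
Mt2: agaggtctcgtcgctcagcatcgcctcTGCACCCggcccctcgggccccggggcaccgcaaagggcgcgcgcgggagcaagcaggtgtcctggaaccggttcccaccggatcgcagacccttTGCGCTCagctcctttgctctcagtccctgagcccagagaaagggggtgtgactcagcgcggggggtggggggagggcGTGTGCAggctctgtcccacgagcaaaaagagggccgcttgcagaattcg

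Mt1 measured 76.7, 77.2 and 78.2 CPM in the OCA libraries and 64.8, 84.2 and 74.5 CPM in the DMSO libraries. Its log2 fold change was 0.06, with a standard error of 0.08 and a 95% interval from -0.12 to 0.23. Mt2 measured 48.2, 50.9 and 52.1 CPM in the OCA libraries and 39.9, 54.1 and 49.9 CPM in the DMSO libraries. For both genes DMSO A was the lowest and DMSO B the highest library, and the OCA libraries lay between them. The log2 fold change of Mt2 was 0.08, with a standard error of 0.10 and a 95% interval from -0.13 to 0.28. Both were below 0 in the same 3 of 18 alternative analyses, with length offsets, without DMSO A, and without OCA B and DMSO A, at -0.03 or higher for Mt1 and -0.05 or higher for Mt2. The ratio of Mt1 to Mt2 within a library was 1.59, 1.52 and 1.499 under OCA and 1.62, 1.56 and 1.49 under DMSO, so it overlapped between the groups. Their transcripts share 0 stretches of 30 bases, out of 520 in one and 482 in the other. Both are in the shortest eighth of genes, whose median log2 fold change was 0.10, and the part of length was not tested.

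Set beside Sgk1, all 8 companions had a 95% interval that lay wholly below its log2 fold change of 0.57. The highest upper bound among them was a fold of 1.22, for Mt2, and the lower bound of Sgk1 was 1.35. Sgk1 was chosen by its rise in this comparison, so setting these bounds side by side is a description and no test. A lack of a call does not show that a companion stayed at its vehicle level.

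**Figure D2:**
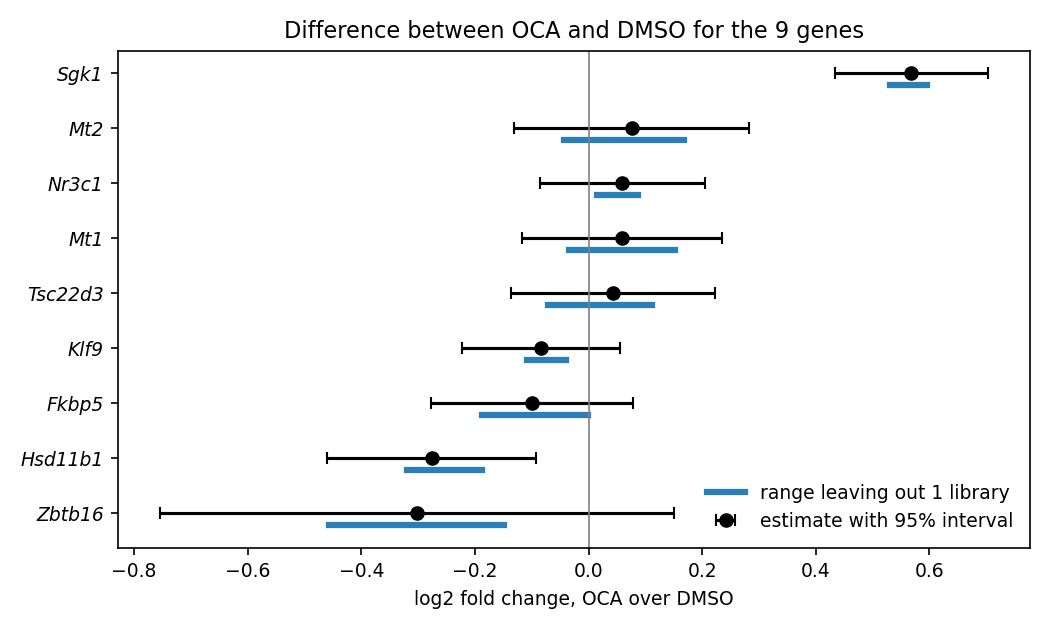
Log2 fold change of OCA over DMSO for each of the 9 genes, with the 95% interval of the fit (3 libraries a group). Sgk1 lies at 0.57 and every companion between -0.30 and 0.08.

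The ratios of counts within a library do not depend on scaling between libraries. They restate the rise by which Sgk1 was chosen and are given only as a description. The count ratio of Sgk1 to Fkbp5 was 2.70, 2.48 and 2.12 in OCA A, B and C and 1.53, 1.53 and 1.49 in DMSO A, B and C. The ratio of Sgk1 to Tsc22d3 was 2.61, 2.23 and 2.55 under OCA and 1.75, 1.72 and 1.64 under DMSO. The ratio of Sgk1 to Nr3c1 was 0.479, 0.567 and 0.543 under OCA and 0.377, 0.349 and 0.388 under DMSO. For each of the 8 companions the lowest OCA ratio exceeded the highest DMSO ratio. The narrowest gap was for Mt2, at 3.36 in OCA C and 3.11 in DMSO A.

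**Figure D3:**
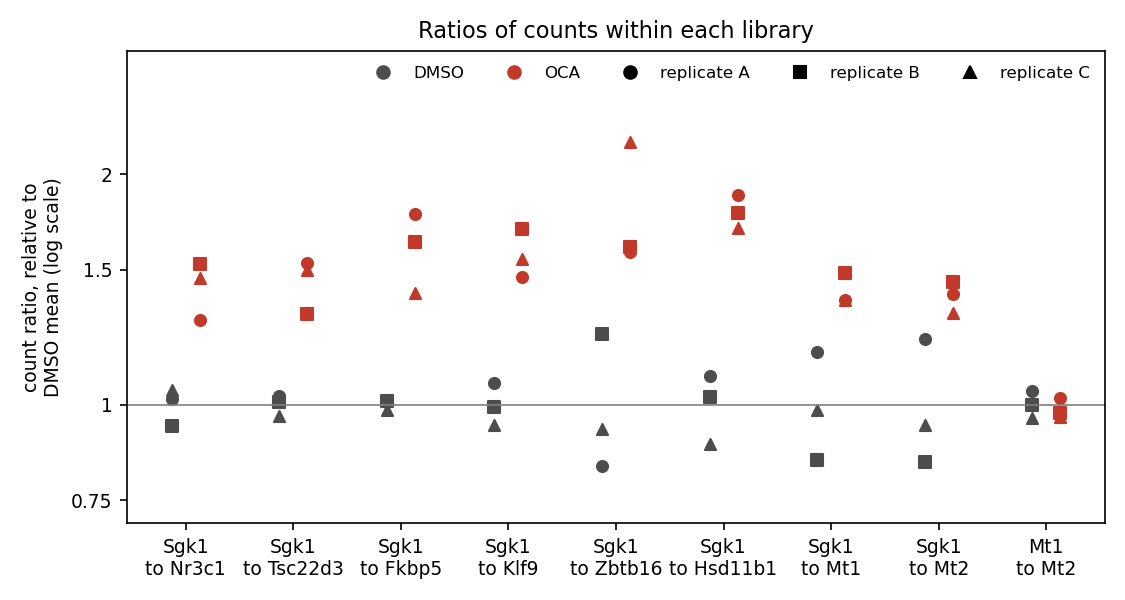
Ratio of Sgk1 to each companion within each library, divided by the mean of that ratio over the 3 DMSO libraries, so that 1 is the DMSO mean, on a log scale. The ratio of Mt1 to Mt2 is shown last. For all 8 companions the 3 OCA libraries lie above the 3 DMSO libraries.

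Per length of transcript, the order of the 9 genes under DMSO was led by the metallothioneins. In CPM per kilobase, Mt1 stood at 139 and Mt2 at 87.1, and their libraries did not overlap. Nr3c1 at 51.3, Sgk1 at 49.2 and Hsd11b1 at 45.7 followed, and neighbours in this trio overlapped between libraries. Klf9 at 33.6, Tsc22d3 at 27.5 and Fkbp5 at 20.5 came next without overlap, and Zbtb16 at 1.76 was last. Under OCA, Sgk1 stood at 73.0 CPM per kilobase, between 70.3 and 76.9 in its libraries, above Nr3c1 at 53.4, which ran from 51.1 to 56.7. Hsd11b1 stood at 37.8, from 34.6 to 39.9, clear of Klf9 at 31.7, from 30.9 to 32.7. Tsc22d3 at 28.4, from 25.6 to 32.8, then overlapped Klf9.

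A broader list of 36 other glucocorticoid-induced genes showed calls in both directions. It was drawn up from general knowledge, with earlier results of these data known. Of its 28 tested genes, 3 were called higher, 3 lower and 22 were not called. This is 21.4% called, against 5.2% of all tested genes called in either direction, 2.18% higher and 3.03% lower. At an unadjusted p under 0.05 in the same test, 4 were higher and 6 lower. The OCA libraries lay all above the DMSO libraries for 17.9% and all below for 28.6%, against 11.6% and 11.3% of all tested genes. As earlier results were known, these shares are a description and no test. The median log2 fold change was -0.02, with 13 genes above 0 and 15 below. Of the tested genes 1, Arl4d, reached the count filter's minimum of 0.757 CPM in all DMSO libraries but not in all OCA libraries. Its log2 fold change of -0.85, the lowest of the list, was thus partly fixed by the filter. The median and the counts of directions are therefore not read as a result. Arl4d was named after its values were seen. The other 8 genes of the list, among them Tat and Pck1, had too few counts to be tested.

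The 3 that rose were Errfi1, Nfkbia and Mertk. Errfi1, a feedback inhibitor of the epidermal growth factor receptor, rose from 157 ± 7.52 to 221 ± 17.1 CPM (SD, n = 3), a log2 fold change of 0.50 with an adjusted p of 0.000153 by edgeR's quasi-likelihood test, and was called in all 18 alternative analyses. Nfkbia, which encodes the NF-κB inhibitor IκBα, rose from 77.1 ± 5.83 to 95.2 ± 2.60 CPM, a log2 fold change of 0.30 with an edgeR adjusted p of 0.0192. Mertk, a receptor for the uptake of dying cells, rose from 61.0 ± 2.74 to 74.9 ± 5.07 CPM, a log2 fold change of 0.30 with an edgeR adjusted p of 0.0281. Nfkbia was not called when DMSO A, DMSO B, OCA A or OCA C was left out, where its adjusted p reached 0.0866. Mertk was not called without OCA B, OCA C, DMSO B or DMSO C, where it reached 0.132.

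The 3 that fell were Angptl4, Pdk4 and Pik3r1. Angptl4, which encodes an inhibitor of lipoprotein lipase, fell from 71.0 ± 3.01 to 48.4 ± 6.00 CPM, a log2 fold change of -0.55 with an edgeR adjusted p of 0.000563, and was called in all 18 alternative analyses. Pdk4, whose kinase shuts down pyruvate dehydrogenase, fell from 24.8 ± 1.38 to 17.6 ± 1.29 CPM, a log2 fold change of -0.48 with an edgeR adjusted p of 0.0219. Pik3r1, a regulatory subunit of phosphoinositide 3-kinase, fell from 189 ± 15.5 to 152 ± 9.45 CPM, a log2 fold change of -0.32 with an edgeR adjusted p of 0.0141. Pdk4 was not called without OCA A, OCA C, DMSO B or DMSO C, where its adjusted p reached 0.0906. Pik3r1 was not called without OCA C or DMSO A, where it reached 0.102, nor with length offsets. Mertk and Pdk4 were named after their values were seen, to complete the counts.

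Per1 and Dusp1, 2 familiar early targets in the same list, were not called. Per1, a clock gene, averaged 24.2 CPM under DMSO and 24.0 CPM under OCA, a log2 fold change of -0.02 with a standard error of 0.12. Dusp1, a phosphatase that switches off MAP kinases, averaged 67.5 and 70.7 CPM, a log2 fold change of 0.07 with a standard error of 0.07. Its OCA libraries all lay above its DMSO libraries, by 68.20 against 68.16 CPM at the nearest, as for 11.6% of all tested genes. These 2 genes were also named after their values were seen.

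**Figure D4:**
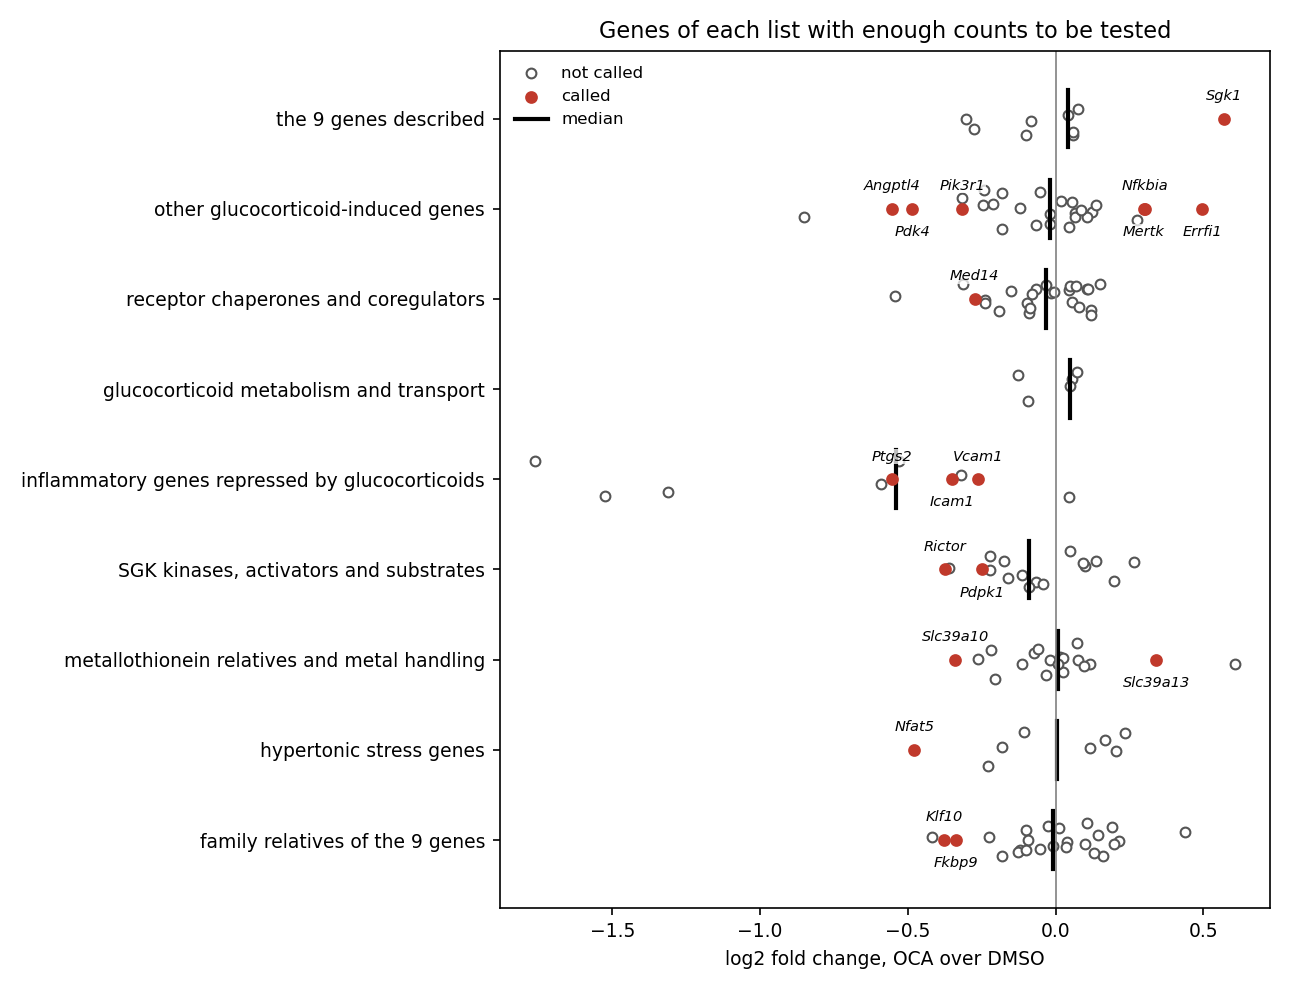
Log2 fold change of OCA over DMSO for the tested genes of each list, 1 point a gene, with called genes filled and named and the list median as a bar. Sgk1 stands apart at 0.57 in the top row, and the other glucocorticoid-induced genes lie on both sides of 0 with a median of -0.02. The median of the inflammatory list includes 3 genes that passed the count filter through their DMSO level. That of the other glucocorticoid-induced genes includes 1 such gene. The medians of the metal handling list and of the family relatives each include 1 gene that passed through its OCA level.

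Of 25 chaperones and coregulators of the receptor, all tested, edgeR called 0 higher and 1 lower, or 4%, against 5.2% of all tested genes. At an unadjusted p under 0.05, 1 was higher and 5 lower, and the median log2 fold change was -0.03. The called gene was Med14, a subunit of the Mediator complex that the receptor can bind, which fell from 90.9 ± 4.97 to 75.1 ± 1.01 CPM, a log2 fold change of -0.27 with an edgeR adjusted p of 0.0270. It was not called when DMSO A, DMSO B, OCA A or OCA C was left out, where its adjusted p reached 0.105, nor with length offsets.

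Of 20 inflammatory genes that glucocorticoids repress in many cells, 10 were tested. By edgeR 3 were called lower and 0 higher, beside 3.03% and 2.18% of all tested genes. Also 0 were higher at an unadjusted p under 0.05. Another 3 of the 10, Ccl2, Mmp13 and Tslp, reached the count filter's minimum of 0.757 CPM in all DMSO libraries but not in all OCA libraries. They were named after their values were seen. As they were tested because of their DMSO level, their lower values under OCA were partly fixed by the filter, and no median or count of directions over the 10 genes is read as a result. The 3 called genes were far above this minimum in every library. Ptgs2, the inducible cyclooxygenase, fell from 51.9 ± 3.28 to 35.4 ± 6.16 CPM, a log2 fold change of -0.55 with an edgeR adjusted p of 0.00430, and was called in all 18 alternative analyses. The leukocyte adhesion molecule gene Icam1 fell from 85.2 ± 1.19 to 66.9 ± 5.61 CPM, a log2 fold change of -0.35 with an edgeR adjusted p of 0.00891, and 0.0634 without OCA A. Vcam1, another adhesion molecule gene, fell from 216 ± 14.4 to 180.3 ± 15.9 CPM, a log2 fold change of -0.26 with an edgeR adjusted p of 0.0448. It was not called with length offsets or without any 1 library other than OCA B, where its adjusted p reached 0.241. Macrophages also express such genes, and their 8 markers summed to 6.36 to 12.04 CPM under DMSO and 6.57 to 8.71 CPM under OCA. The part of macrophages in these values was not tested.

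Among 22 genes of SGK kinases, their activators and substrates, 17 were tested, and edgeR called 0 higher and 2 lower. Over all tested genes the shares were 2.18% higher and 3.03% lower. In the list, 1 was higher and 4 lower at an unadjusted p under 0.05. The median log2 fold change was -0.09. The products of the 2 called genes act upstream of the SGK1 protein, by phosphorylation. Pdpk1, which encodes the kinase PDK1, fell from 127 ± 7.78 to 107 ± 3.34 CPM, a log2 fold change of -0.25 with an edgeR adjusted p of 0.0363. Rictor, a subunit of the kinase complex mTORC2, fell from 60.2 ± 3.99 to 46.5 ± 7.85 CPM, a log2 fold change of -0.38 with an edgeR adjusted p of 0.0399. Pdpk1 was not called when DMSO A, DMSO B, OCA A or OCA C was left out, nor with length offsets or without OCA B and DMSO A, and its adjusted p then reached 0.332. Rictor was not called without OCA A or any 1 DMSO library, nor with length offsets, and its adjusted p then reached 0.241.

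Of 22 relatives of the metallothioneins and metal transporters, 19 were tested. Of these, 1 was called higher, 1 lower and 17 were not called, against 5.2% of all tested genes called in either direction. The median log2 fold change was 0.01. Atp7b reached the count filter's minimum of 0.757 CPM in all OCA libraries but not in all DMSO libraries. Its direction was thus partly fixed by the filter, and the median is not read as a result. Slc39a13, a zinc transporter of internal membranes, rose from 149 ± 9.14 to 189 ± 3.14 CPM, a log2 fold change of 0.34 with an edgeR adjusted p of 0.00339, and was called in all 18 alternative analyses. Slc39a10, which encodes a zinc importer, fell from 72.7 ± 2.99 to 57.5 ± 1.65 CPM, a log2 fold change of -0.34 with an edgeR adjusted p of 0.00927, and 0.0517 without DMSO C.

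Cell shrinkage is another known inducer of Sgk1, and of 9 hypertonic stress genes 8 were tested. By edgeR 0 were called higher and 1 lower, beside 2.18% and 3.03% of all tested genes, and the median log2 fold change was 0.01. With length offsets 1 was called higher. In the list, 2 were higher and 3 lower at an unadjusted p under 0.05. The OCA libraries lay all above the DMSO libraries for 3 of the 8 (37.5%) and all below for 2 (25%). Over all tested genes these shares were 11.6% and 11.3%. Cell shrinkage as a cause of the Sgk1 rise was not tested. Nfat5, the transcription factor of the response to high tonicity, fell from 187 ± 29.2 to 134 ± 18.5 CPM, a log2 fold change of -0.48 with an edgeR adjusted p of 0.00694. It was not called without OCA A, without DMSO A or with robust estimation, where its adjusted p reached 0.119. Of 28 family relatives of the 9 genes, 25 were tested. By edgeR 0 were called higher and 2 lower, or 8%, against 5.2% of all tested genes. At an unadjusted p under 0.05 there were 3 in each direction, and the median was -0.01. Fkbp1b reached the count filter's minimum of 0.757 CPM in all OCA libraries but not in all DMSO libraries. Its direction was thus partly fixed by the filter, and neither the median nor the counts by direction are read as a result. DESeq2 and limma-voom also called 0 higher in each list where edgeR did. Klf10, a relative of Klf9 that responds to transforming growth factor beta, fell from 105 ± 5.12 to 80.5 ± 9.06 CPM, a log2 fold change of -0.38 with an edgeR adjusted p of 0.00741, but was not called without OCA A or OCA C, where its adjusted p reached 0.0553. Fkbp9, a relative of Fkbp5 in the endoplasmic reticulum, fell from 206 ± 13.6 to 163 ± 31.3 CPM, a log2 fold change of -0.34 with an edgeR adjusted p of 0.0458. It was not called with robust estimation or without any 1 library other than OCA B, where its adjusted p reached 0.256. Its groups overlapped, with OCA B at 199 CPM and DMSO A at 190.4 CPM.

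The genes whose pattern over the 6 libraries was most like that of Sgk1 were Esam, Spsb1, Fam84a, Vipr1 and Rfx2. They were ranked by Pearson's r of log2 CPM among 10734 tested genes with a mean of at least 5 CPM, and r ran from 0.994 to 0.997. Such values largely repeat the gap between the groups in the same 6 libraries, and no p is given. Esam, an adhesion molecule gene of endothelial cells and platelets, averaged 83.7 ± 1.03 CPM under DMSO and 137 ± 7.80 CPM under OCA. Endothelial markers, 8 genes, summed to 4.01 to 5.94 CPM and 2.94 to 6.53 CPM. Fam84a had the largest difference of the 5, from 66.6 to 165 CPM, and Vipr1, a receptor for vasoactive intestinal peptide, averaged 77.7 and 132 CPM. Spsb1, an adaptor of ubiquitin ligases, averaged 88.0 and 127 CPM. Rfx2, a transcription factor of cilia genes, averaged 6.30 and 7.25 CPM and was not called.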

How the data were processed

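RNA sequencing libraries of 3 OCA and 3 DMSO samples were grouped by their labels. The submitters' processing notes name STAR, HOMER and mm10. Not given in the sources used here: versions, strand setting and treatment of shared reads. A single table was deposited by the authors, made of exon counts, not adjusted for depth, per the file headers, for 24940 genes, each with its transcript's position and length. The deposited values lie in steps of 0.5 and were treated like expected counts, then rounded to whole numbers before testing. Between 26.5% and 29.8% of values in a column were not whole. No sample column was left unused.

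Testing was done in R 4.3.3 with edgeR 4.0.16, using filterByExpr, TMM scaling and the two-sided quasi-likelihood test on 12687 genes, Benjamini-Hochberg adjusted, called under 0.05, with no block. CPM use TMM-scaled totals. The common biological coefficient of variation was 7.98%. The fit was tested on simulated data. Replicates differed beyond sampling noise (chi-square over degrees of freedom 4.40 to 8.01). Alternatives were DESeq2 1.42.0, limma-voom (limma 3.58.1), 3 scalings, 2 filters, robust estimation, unrounded values, a replicate block, length offsets, and leaving out libraries, 18 in all.

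The 9 genes and the 8 gene lists were chosen with earlier results of these data known. From each list the rule named up to 4 called genes with the smallest p, all called genes where they numbered 5 or fewer, or, where none was called, the 2 with the highest level, besides the 5 genes most like Sgk1. Marker genes are named to describe the samples. Motifs were searched as letters in 250 bases before each RefSeq start.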

Additional observations from a re-analysis of the deposited data

How the results depend on the processing

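Sgk1 was called higher in all 18 alternative analyses, with log2 fold changes from 0.53 to 0.60, and leaving out 1 library gave the same range. No result changed its direction while called. The number of genes called lower, 384 as reported, was 703 with no filter on low counts, 227 with length offsets and 605 without OCA B and DMSO A. Leaving out 1 library gave 104 to 758 called lower and 161 to 363 called higher. Among the 9 genes, 1 was called lower, Hsd11b1, with no filter on low counts, with length offsets and without OCA B and DMSO A, and 0 to 1 when 1 library was left out. Of the other glucocorticoid-induced genes, 5 were called lower with no filter on low counts and 5 without OCA B and DMSO A, and leaving out 1 library gave 1 to 5 called lower and 1 to 2 called higher. The cause was not tested. Of 186 values recomputed with 1 library left out, 147 stayed within the limits set and 39 moved. Of 372 under the other alternatives, 349 stayed and 23 moved.

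The deviations of libraries with the same letter correlated at 0.000511 for A, -0.0433 for B and 0.0535 for C. Those of libraries with different letters correlated between -0.0803 and 0.0795. With 3 libraries a group, these values cannot show whether the letters pair the samples. With a replicate block the log2 fold change of Sgk1 was 0.57, and 306 genes were called higher and 508 lower. List genes under the count filter were left out of the reported fit. The alternative with no filter on low counts included those with any counts.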
